A study of Mus musculus with 8 samples.

Results

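The 8 transcripts of the suppressor of cytokine signalling (SOCS) family, *Cish* and *Socs1* to *Socs7*, were picked out by gene symbol from a table of 22520 genes and assembled transcripts. All 8 were measured in every library, and all 8 passed the filter on low values, which left 10666 genes for testing. *Socs3* rose 2.57-fold in CD8+ T cells treated with DADA, *Socs5*, *Socs2* and *Socs1* rose by smaller amounts, and *Cish*, *Socs4*, *Socs6* and *Socs7* did not pass the test.

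The data are bulk RNA-seq of mouse CD8+ T cells purified from the spleens of wild-type mice and kept in RPMI medium with serum for 6 days. Both groups received anti-CD3 and anti-CD28 antibodies and IL-2 throughout, a culture that models exhaustion driven by persistent TCR stimulation. From day 3, 4 cultures were given 40 µM DADA (diisopropylamine dichloroacetate, an inhibitor of pyruvate dehydrogenase kinase) and the 4 controls an equal volume of the solvent DMSO, and RNA was taken on day 6. The methods list male C57BL/6J mice among several strains, without tying a strain, age or sex to these libraries. The design text calls the 4 samples of each group biological replicates, without saying whether they came from separate mice, so the p-values measure the spread between these samples only. Because IL-2 was present in both groups and the cells were harvested at 1 time, the values describe a single time in cells given IL-2 throughout, not the time course of a response, and cytokine levels in the medium were not analysed here.

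SOCS proteins are the classical negative feedback of cytokine receptors. A cytokine brings its receptor chains together, the attached JAK kinases phosphorylate STAT factors, and the STAT dimers switch on genes that include those of the SOCS proteins. Each SOCS protein carries an SH2 domain, which binds phosphorylated tyrosines on receptors or kinases, and a SOCS box, which recruits elongins B and C and cullin 5 to mark bound proteins with ubiquitin. CIS, the product of *Cish*, is induced by IL-2 through STAT5 and restrains T cell receptor and cytokine signals in CD8+ T cells. SOCS1 and SOCS3 can also block JAK activity directly, SOCS1 being best known for interferon and gamma chain cytokines and SOCS3 for receptors that contain gp130. SOCS2 is best known for growth hormone signalling, and SOCS4 to SOCS7 for growth factor and insulin receptors more than for cytokines.

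FPKM values (fragments per length of transcript and per mapped fragments) of a library summed to between 438299 and 456939. By an estimate from the spacing of low values, the depth was 13670000 to 16320000 mapped fragments with DMSO and 15110000 to 18500000 mapped fragments with DADA, and 3 of the 4 DADA libraries lay above every DMSO library. These depths are rough, since only 36.8% to 41.4% of the values used lay near a whole number of fragments. Between 10376 and 10413 genes reached 1 FPKM with DMSO and between 10628 and 10664 with DADA, and the part of depth in the results below was not tested. Transcripts of CD8 T cells were abundant, the 6 markers measured summing to between 838 and 857 FPKM with DMSO and between 1064 and 1094 FPKM with DADA. All 6 were called higher with DADA, where 30.9% of all genes tested were called higher. *Cd3g* passed only narrowly, since its call was lost in 8 of 17 alternatives. Of the 8 myeloid markers, 7 stayed below 1 FPKM in every library, as did 6 of 7 B cell markers, 3 of 4 CD4 T cell markers and all 4 NK and 6 erythroid markers. *Csf1r*, *Adgre1* and *Pax5* were listed at 0 in every library. The exceptions were *Cd68* (group means 3.66 and 5.32 FPKM, called higher), *Cd79b* (3.09 and 2.69 FPKM, not called) and *Zbtb7b* (16.4 and 15.1 FPKM, called lower). The summed myeloid markers lay between 3.69 and 4.40 FPKM with DMSO and between 5.21 and 5.89 FPKM with DADA, nearly all of it *Cd68*, and their part in the results below was not tested.

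The promoters are shown because STAT and interferon-response motifs are the textbook route from a cytokine to a SOCS gene. RefSeq promoter windows, from 250 bases before to 50 bases after the annotated start, were at hand for *Cish*, *Socs1*, *Socs3* and *Socs4*. They were searched on both strands for the STAT motif TTCNNNGAA, which reads the same on either strand, and for the interferon-response motif GAAANNGAAA (TTTCNNTTTC on the other strand). The 2 motifs share no match. The lines below show 30 bases around each match from build GRCm38.p6, 5′ to 3′ on the strand of the gene, with the matching bases in capitals.
*Cish* (chr9:107296654-107296683, plus strand): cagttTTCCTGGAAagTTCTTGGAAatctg
*Socs3* (chr11:117969502-117969531, minus strand): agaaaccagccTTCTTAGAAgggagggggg
*Socs1* (chr16:10785597-10785626, minus strand): cttgccgGAAAGAGAAACCGAAAgcggggg
The *Cish* window holds a pair of STAT motifs, at bases 1 to 9 and 12 to 20 counted from the annotated start. *Socs3* has 1 STAT motif, with its first base at -154 and its last at -146, and *Socs1* has 2 overlapping interferon-response motifs between -83 and -68. Neither motif was found in the *Socs4* window. Among all 32851 windows of this length, 8.3% hold the STAT motif and 3.44% the interferon-response motif, so a match describes the letters and not a bound site. The submitters' processing notes name GRCm39, and these coordinates were not combined with any from that build.

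*Socs3* (ENSMUSG00000053113), whose product binds gp130 and related receptors and inhibits JAK kinases, had the largest change of the family. It was at 5.42, 4.88, 6.01 and 5.16 FPKM in DMSO 1 to 4 and at 14.1, 14.6, 12.7 and 13.9 FPKM in DADA 1 to 4. The groups lay far apart, the lowest DADA library holding more than double the level of the highest DMSO library. The mean went from 5.37 ± 0.481 to 13.8 ± 0.801 FPKM (SD, n = 4 per group). Its fold change, on the log2(FPKM + 1) scale used throughout, which understates the change of low transcripts, was 1.22 (standard error 0.0612, adjusted p = 6.89e-08, limma). Only 294 of the 10666 genes tested had a larger change in either direction. In bulk RNA, a higher level per cell and a larger share of cells that express the gene cannot be told apart, here or for any member below.

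*Socs5* (ENSMUSG00000037104), the least abundant member, had the next largest rise. SOCS5 is known for the receptors of IL-4 and of epidermal growth factor. Its transcript was at 2.45, 2.78, 2.49 and 2.67 FPKM in DMSO 1 to 4 and at 3.55, 3.80, 3.58 and 4.00 FPKM in DADA 1 to 4, again without overlap. The ratio of the means was 1.44 and the log2 fold change 0.39 (standard error 0.0546, adjusted p = 1.14e-04, limma). At the estimated depth, and for the longest of its 3 transcripts in GENCODE M21, *Socs5* rested on about 158 fragments in the library with the fewest, for which counting alone gives a coefficient of variation of 7.96% (a shorter isoform would mean fewer fragments and a larger one), and the observed one was 6.05% with DMSO and 5.66% with DADA.

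**Figure D1:**
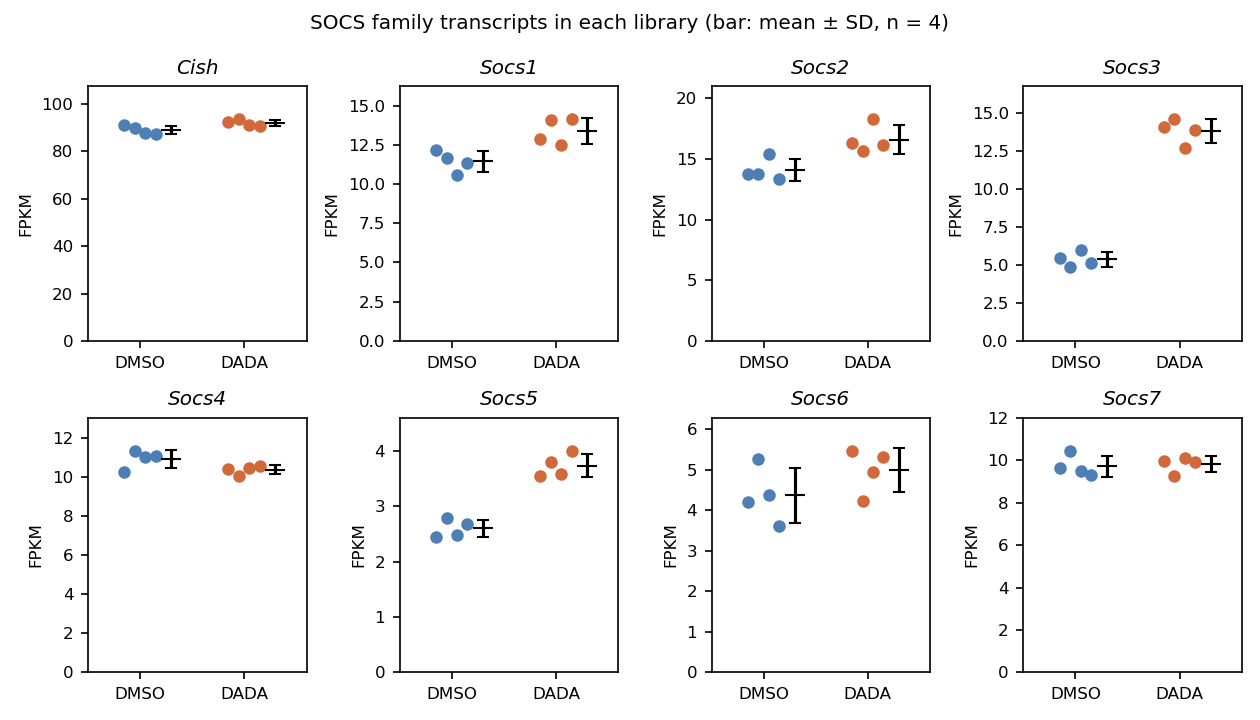
FPKM of the 8 SOCS family transcripts (vertical axes, each starting at 0) in the 4 DMSO and 4 DADA libraries (points), with the mean and SD beside them. The groups do not overlap for *Socs1*, *Socs2*, *Socs3* and *Socs5*, and *Socs3* moves from 5.37 to 13.8 FPKM on average.

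*Socs2* (ENSMUSG00000020027) and *Socs1* (ENSMUSG00000038037) rose by nearly the same, small amount. *Socs2* was at 13.8, 13.8, 15.4 and 13.3 FPKM in DMSO 1 to 4 and at 16.3, 15.6, 18.3 and 16.1 FPKM in DADA 1 to 4. *Socs1* was at 12.2, 11.6, 10.6 and 11.4 FPKM in DMSO 1 to 4 and at 12.9, 14.1, 12.5 and 14.1 FPKM in DADA 1 to 4. For both genes the groups came close without overlapping, DMSO 3 being the highest control for *Socs2* and DMSO 1 for *Socs1*. Their log2 fold changes were 0.22 for *Socs2* (adjusted p = 0.00533, limma) and 0.21 for *Socs1* (adjusted p = 0.00559, limma), and the ratios of the mean FPKM were 1.18 and 1.17. For *Socs1*, *Socs2*, *Socs3* and *Socs5* a two-sided exact permutation test, which has 70 assignments, gave p = 0.0286, the smallest it can give with 4 against 4 libraries.

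*Cish* (ENSMUSG00000032578), by far the most abundant member, was at nearly the same level in both groups. It was at 91.1, 89.7, 87.8 and 87.6 FPKM in DMSO 1 to 4 and at 92.4, 93.6, 91.1 and 90.8 FPKM in DADA 1 to 4. The groups overlapped only through DMSO 1, which lay above DADA 4 by less than 1 FPKM. Its log2 fold change of 0.05 did not pass the test (95% interval 0.00 to 0.10, adjusted p = 0.0862, limma, exact permutation test, p = 0.0571). This call depended on 1 library and on the scaling, since *Cish* was called higher without DMSO 1 (log2 fold change 0.06, adjusted p = 0.0495, limma), after rescaling to a common total (0.08, adjusted p = 0.00710) and after quantile normalization (0.11, adjusted p = 9.86e-04). Under all 17 alternatives the change of *Cish* stayed between 0.04 and 0.11. In GENCODE M21, 2 annotated genes on the opposite strand, *Gm17040* and *Gm17041*, overlap *Cish*. They were not analysed here, and whether the fragments were assigned by strand is not given in the sources used here.

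The remaining members, *Socs4* (ENSMUSG00000048379), *Socs6* (ENSMUSG00000056153) and *Socs7* (ENSMUSG00000038485), had overlapping groups. *Socs4* lay between 10.3 and 11.4 FPKM with DMSO and between 10.1 and 10.6 FPKM with DADA, the only member with a lower mean in DADA-treated cells (log2 fold change -0.07, 95% interval -0.15 to 0.02, adjusted p = 0.146, limma). Without DMSO 1, its lowest control, *Socs4* was called lower (-0.10, adjusted p = 0.0424, limma), as it was under quantile normalization (-0.09, adjusted p = 0.0475). *Socs7*, which encodes a protein of nuclear and cytoskeletal partners, lay between 9.31 and 10.5 FPKM with DMSO and between 9.28 and 10.1 FPKM with DADA (log2 fold change 0.01, 95% interval -0.08 to 0.11, adjusted p = 0.782, limma). *Socs6* varied the most between replicates, between 3.60 and 5.26 FPKM in the controls and between 4.23 and 5.46 FPKM in DADA libraries, a coefficient of variation of 15.7% and 11.0%. Its interval of -0.05 to 0.38 around a log2 fold change of 0.16 (adjusted p = 0.164, limma) holds the values found for *Socs1* and *Socs2*, so a change of that size was not resolved. Without DMSO 2, the highest control, *Socs6* was called higher (0.24, adjusted p = 0.0367, limma). In GENCODE M21, 3 processed pseudogenes overlap *Socs6*, 1 of them on the opposite strand. They were not analysed here, and their part in its value was not tested.

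Of the 8 members, 4 were called higher and 0 lower, with 50% called, whereas 66.2% of all genes tested were called in either direction. By direction, 30.9% of all genes tested were called higher and 35.3% lower. Groups that did not overlap were found for 4 members, all with DADA above DMSO, and for 60.6% of all genes tested (28.4% with all DADA libraries above and 32.2% with all below). The share of members called in either direction was thus not above that of genes in general. All 4 calls were upward, so the share called higher (50%) was above the 30.9% of all genes tested, a difference in 8 members that was not tested. The median log2 fold change was 0.19 over the members and -0.02 over all genes tested. *Socs3* lay at the percentile of 97.5 among the fold changes of all genes tested, *Socs5* at 86.8, *Socs2* at 77.1 and *Socs1* at 76.1, while *Socs6*, not called, lay at 71.6 and *Cish*, *Socs7* and *Socs4* lay at 58.5, 54.2 and 43.2.

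**Figure D2:**
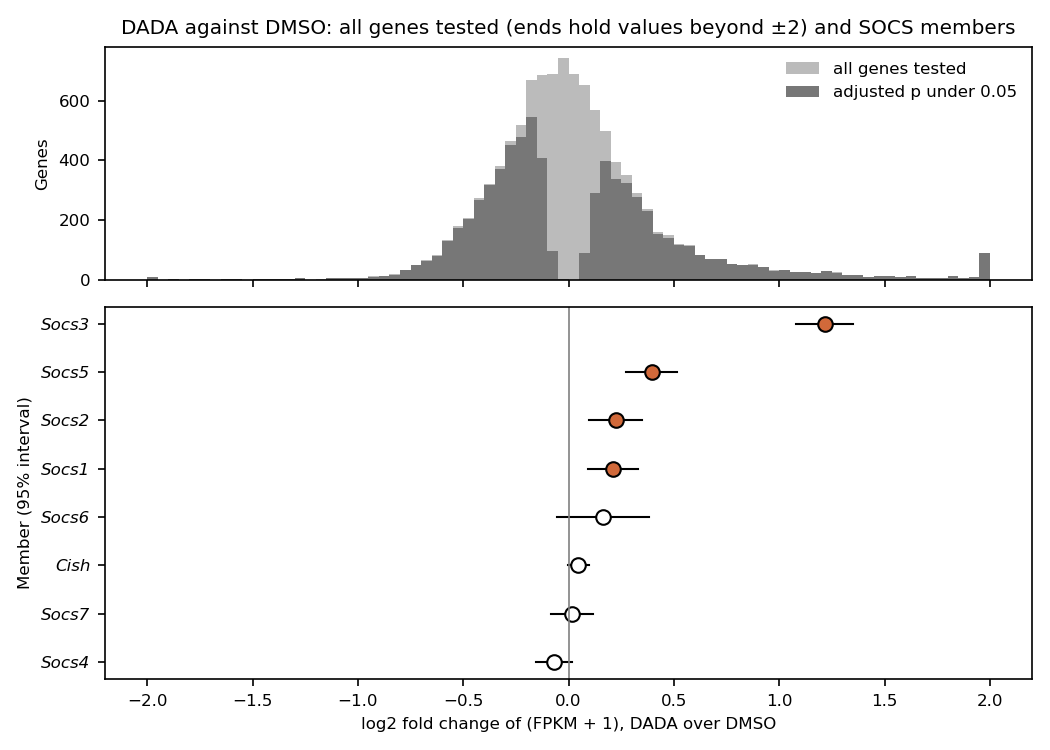
Upper panel, number of genes (vertical axis) by log2 fold change of FPKM + 1, DADA over DMSO (horizontal axis), for all 10666 genes tested and for those called, with changes beyond 2 in either direction in the end bars. Lower panel, the 8 members on the same axis with 95% intervals, filled where called, where *Socs3* at 1.22 stands apart from the other members, which lie between -0.07 and 0.39.

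FPKM is scaled to transcript length, so the levels of the members can be set side by side. With DMSO, *Cish* was followed by *Socs2* (14.1 FPKM), *Socs1* (11.4), *Socs4* (10.9), *Socs7* (9.72), *Socs3* (5.37), *Socs6* (4.36) and *Socs5* (2.60). The ranges of *Socs1* and *Socs4*, of *Socs4* and *Socs7* and of *Socs3* and *Socs6* overlapped. *Socs1* lay above *Socs4*, and *Socs3* above *Socs6*, in 3 of the 4 DMSO libraries. The order of *Socs1* and *Socs4* and of *Socs3* and *Socs6* is thus not beyond the spread of the replicates. *Socs4* lay above *Socs7* within all 4 libraries of each group. With DADA, *Socs3* moved from rank 6 to rank 3, level with *Socs1*, and the ranges of *Socs3* and *Socs1* overlapped, as did those of *Socs4* and *Socs7*. The ranges of all other neighbours did not overlap in either group.

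Summed over the 8 members, the family went from 148 ± 2.57 to 165 ± 0.71 FPKM (SD, n = 4 per group), 11.7% more with DADA. *Cish* made up 60.4% ± 0.707 (SD, n = 4) of this total with DMSO and 55.8% ± 0.628 with DADA. The share of *Socs3* went from 3.64% ± 0.340 to 8.38% ± 0.452, more than that of any other member. Shares of *Socs1*, *Socs2* and *Socs6* overlapped between the groups, those of *Socs4* and *Socs7* were lower in every DADA library, and that of *Socs5* was higher in every DADA library. These shares are descriptions of the members together and were not tested.

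**Figure D3:**
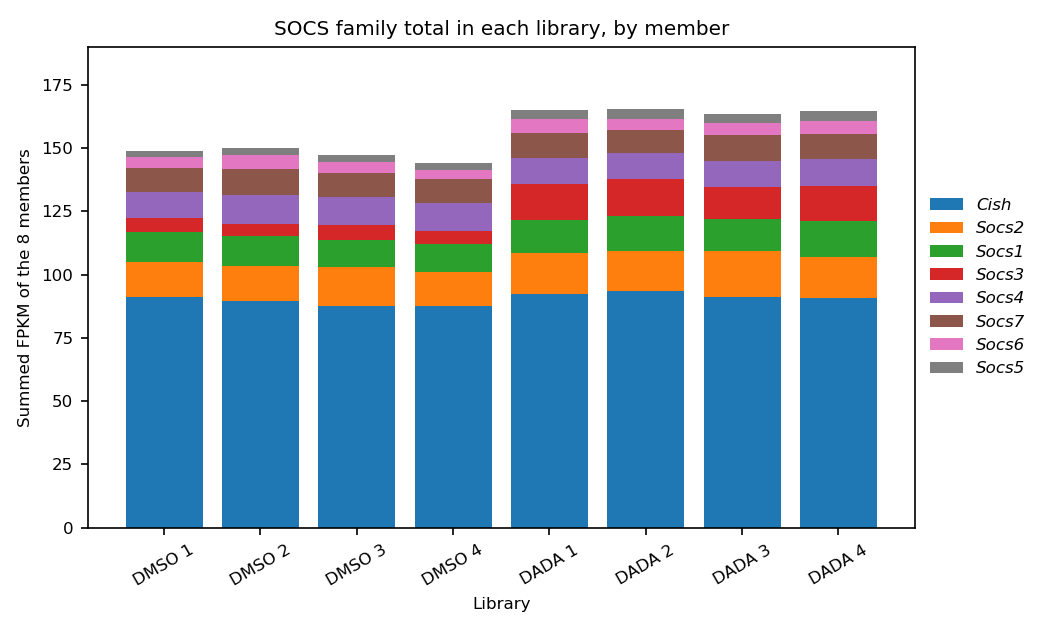
Summed FPKM of the 8 members (vertical axis, from 0) in each of the 8 libraries (horizontal axis), coloured by member. The *Cish* block stays near 90 FPKM in all libraries, between 87.6 and 93.6, while the *Socs3* block widens in the 4 DADA libraries.

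A ratio between members within a library does not depend on how the library is scaled, and 7 ratios to *Cish* were computed, a choice made after the values were seen. The ratio of *Socs3* to *Cish* lay between 0.0544 and 0.0684 with DMSO and between 0.139 and 0.156 with DADA, a log2 change of 1.32 ± 0.0776 (SE). The ratios of *Socs5* and *Socs1* to *Cish* were also higher in every DADA library, with log2 changes of 0.48 ± 0.0646 (SE) and 0.18 ± 0.0545 (SE). For each of these 3 ratios the exact permutation test gave p = 0.0286, the smallest possible, and 0.0667 after Benjamini-Hochberg adjustment over the 7 ratios, which with 4 libraries a group does not pass the threshold. For *Socs2*, whose ratio changed by 0.19, the groups overlapped (exact permutation test, p = 0.0571, adjusted p = 0.1). The ratios of *Socs4*, *Socs6* and *Socs7* changed by -0.12, 0.15 and -0.03 with unadjusted p between 0.114 and 0.571 (exact permutation test). Leaving out single libraries, the change of the *Socs6* ratio ranged from 0.07 without DMSO 4 to 0.24 without DMSO 2.

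The genes with the nearest profile were found for each member by the root mean square difference of log2(FPKM + 1) over the 8 libraries, each gene centred on its own mean, among 10495 tested genes. *Armcx6* (0.0574) and *Tlr7* (0.0582) lay nearest to *Socs3*, whose own deviation from its mean was 0.614. Both were less abundant than *Socs3*, which had means of 5.37 and 13.8 FPKM. *Tlr7* went from a mean of 0.331 to 1.97 FPKM and passed the filter only with its DADA libraries, and *Armcx6* reached a mean of 5.03 FPKM with DADA. Since this scale understates the change of low transcripts, a near profile does not mean an equal fold change of FPKM. *Nfkbie* (0.0399) and *Cd48* (0.0403) lay nearest to *Socs5*, *Lcor* (0.0352) and *Wdcp* (0.0398) to *Socs2*, and *Cbx7* (0.0364) and *Cog6* (0.0380) to *Socs1*. Nearest to *Cish* were *Tmem259* (0.0155) and *Ctsd* (0.0163), and to *Socs4* *Scaf11* (0.0198) and *Cmtm6* (0.0209). *Arrdc2* (0.0750) and *Tom1l1* (0.0774) lay nearest to *Socs6* and *Zfp280b* (0.0163) and *Scand1* (0.0179) to *Socs7*. These distances describe 8 libraries in 2 groups and carry no test.

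Of the cytokines that signal through JAK and STAT, 9 of 18 passed the filter, of which 6 were called higher and 3 lower with DADA (median log2 fold change 0.73). Here and for the lists below, 30.9% of all genes tested were called higher and 35.3% lower, so a count alone is no result about a list. *Il10* and *Il2*, with DMSO means below 1 FPKM, passed the filter only with their DADA libraries. Their calls as higher thus add little to the count, and their values raise the median. *Il10*, whose receptor signals through STAT3, went from between 0.0651 and 0.394 FPKM with DMSO to between 6.59 and 8.19 FPKM with DADA (log2 fold change 2.81, adjusted p = 6.08e-09, limma, between 2.54 and 4.62 over its alternatives). *Il6*, the classical inducer of *Socs3* in other cells, went the other way, from between 9.77 and 11.4 FPKM to between 1.43 and 2.13 FPKM (log2 fold change -2.005, adjusted p = 1.72e-08, limma). *Il3* rose from 1.79 to 9.38 FPKM (log2 fold change 1.91), and *Csf2*, which encodes GM-CSF, fell by 2.27 on the log2 scale. *Osm* and *Lif*, which encode further cytokines of the gp130 family, rose by 0.88 and 0.73 on the log2 scale, and *Il2*, low in both groups, went from a mean of 0.538 to 1.59 FPKM, a rise of 0.74 (between 0.46 and 1.38 over its alternatives).

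Among the receptors, 17 of 23 passed the filter, with 9 called higher and 4 lower (median log2 fold change 0.11). *Il10ra*, the ligand-binding chain for IL-10, had the largest rise, from 11.1 ± 0.448 to 42.3 ± 0.845 FPKM (SD, n = 4 in each group; log2 fold change 1.84, adjusted p = 5.20e-11, limma). The IL-2 receptor chains did not move together. *Il2ra* (log2 fold change 0.90) and *Il2rb* (0.74) rose, whereas *Il2rg*, the common gamma chain, fell from 267.3 to 248.5 FPKM (-0.11, adjusted p = 0.00222, limma, between -0.16 and -0.07 over its alternatives). *Ifngr1*, for interferon-gamma, rose by 0.32 on the log2 scale, and *Ifnar1*, for type I interferon, and *Il27ra* fell by 0.37 and 0.35. *Il6st*, which encodes gp130, the receptor chain that SOCS3 binds, had means of 4.47 and 4.93 FPKM in groups that did not overlap and yet did not pass the test (log2 fold change 0.11, adjusted p = 0.0619, limma), although it did in 3 of its 16 alternatives, among them without DADA 2, with a log2 fold change between 0.01 and 0.16 over all of them. *Il6ra* stayed below 1 FPKM in every library, with means of 0.237 and 0.174 FPKM.

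All 11 JAK kinases and STAT factors were expressed, and 8 were called higher and 1 lower (median log2 fold change 0.19). *Stat3* rose from 87.4 ± 1.37 to 191 ± 4.85 FPKM (SD, n = 4 in each group; log2 fold change 1.12, adjusted p = 1.35e-10, limma), and *Stat2* by 1.38 on the log2 scale. *Jak3*, the kinase of the common gamma chain, rose from 39.9 to 74.1 FPKM (log2 fold change 0.88), and *Stat5a* and *Stat5b*, the factors downstream of IL-2, rose by 0.19 and 0.30. *Tyk2* and *Jak2* rose by 0.19 and 0.12, and *Jak1* was the kinase that fell, by 0.16. *Stat4* and *Stat6* were not called, with log2 fold changes of 0.06 and -0.02, although *Stat4* was called higher under quantile normalization and *Stat6* changed sign in 2 of 17 alternatives.

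**Figure D4:**
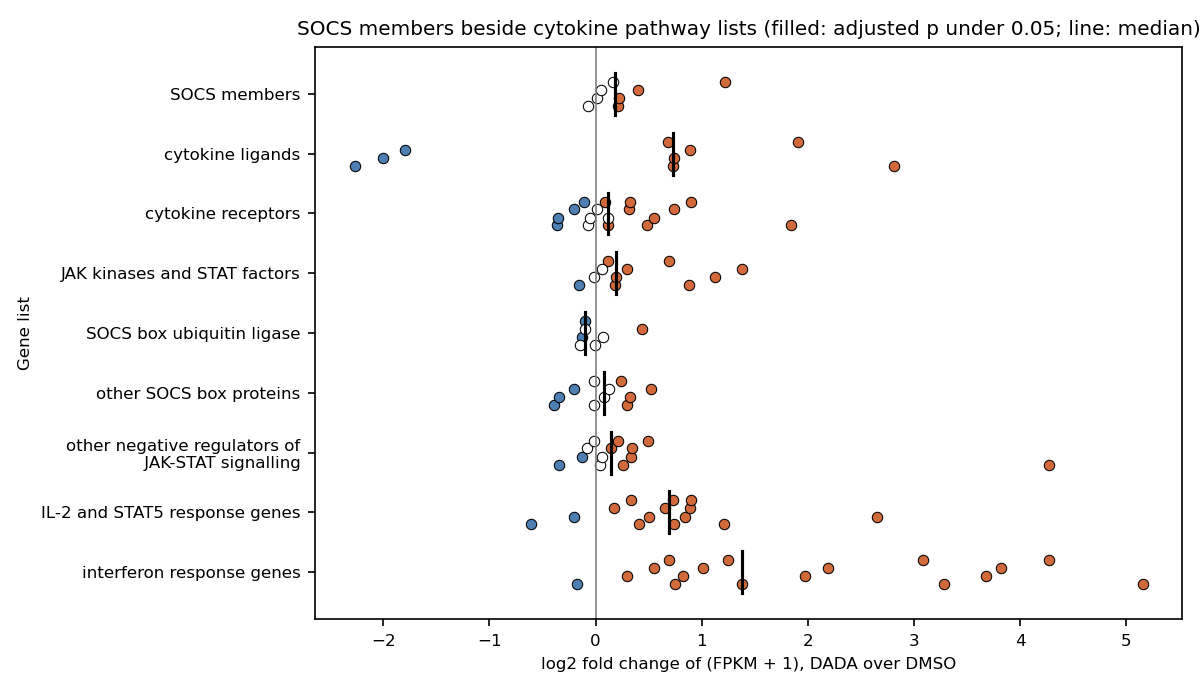
Log2 fold change of FPKM + 1, DADA over DMSO (horizontal axis), for each gene past the filter in the SOCS family and 8 lists of the cytokine pathway (vertical axis), with the median of each list as a line, orange for called higher, blue for called lower and white for not called. The interferon response list has the highest median (1.38) and the SOCS box ubiquitin ligase the lowest (-0.10). These medians include genes that passed the filter only with their DADA libraries.

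Of 7 genes measured for the ubiquitin ligase that SOCS proteins recruit, 1 was called higher and 2 lower (median log2 fold change -0.10). *Arih2*, which encodes an enzyme that starts ubiquitin transfer on cullin 5 complexes, rose from 29.8 to 40.8 FPKM (log2 fold change 0.44, adjusted p = 4.16e-06, limma). *Elob* and *Eloc*, for the elongins that the SOCS box binds, were called lower, by 0.13 (adjusted p = 0.0169, limma) and 0.10 (adjusted p = 0.0394, limma), with overlapping groups, and the call of *Eloc* was lost in 10 of 17 alternatives (log2 fold change between -0.13 and -0.05), among them without DMSO 1, 2 or 4 and without DADA 1 or 3. *Cul5* (20.1 ± 3.14 and 18.5 ± 2.14 FPKM, SD, n = 4) and *Rnf7* (51.1 and 53.8 FPKM) did not pass the test, *Rnf7* being called higher in 3 of 17 alternatives, among them without DMSO 3. The other SOCS box proteins, of the ASB, SPSB, WSB and RAB40 families, gave 4 higher and 3 lower of 11 past the filter, and among those that reach a mean of 5 FPKM in either group the largest changes were those of *Wsb2* (log2 fold change 0.52) and *Wsb1* (0.24) upward and *Rab40c* (-0.35) and *Asb8* (-0.20) downward.

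Other brakes on JAK and STAT signalling were measured beside the SOCS family. Of 13 genes, 7 were called higher and 2 lower (median log2 fold change 0.14), where 66.2% of all genes tested were called in either direction. *Usp18*, which encodes a protease that also restrains the type I interferon receptor, went from between 0.494 and 0.919 FPKM to between 29.9 and 31.8 FPKM. Its log2 fold change was 4.27 (between 4.11 and 5.41 over its alternatives), and it passed the filter only with its DADA libraries. *Cblb*, a ubiquitin ligase that restrains T cell activation, had a log2 fold change of 0.49. The phosphatase genes *Ptpn1*, *Ptpn2* and *Ptpn6* rose by 0.34, 0.33 and 0.14, *Ptpn11* fell by 0.13, and *Sh2b3*, which encodes the adaptor LNK, fell by 0.34.

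Genes that respond to the same cytokines were counted last. Of 14 genes listed as responding to IL-2 and STAT5, 12 were called higher and 2 lower (median log2 fold change 0.69), in the same libraries in which *Cish*, itself a textbook STAT5 target, had a log2 fold change of 0.05. STAT activity was not measured here, and the part of STAT5 in these values was not tested. *Prf1* (2.65) and *Gzmb* (1.21) led upward, *Pim1* and *Pim2*, which encode kinases induced by STAT5, rose by 0.33 and 0.84, and *Bcl2l1* and *Lta* fell by 0.61 and 0.20. Of 17 interferon response genes, 16 were called higher and 1 lower (median log2 fold change 1.38), with *Isg15* at 5.16, while *Socs1*, itself interferon-inducible, rose by 0.21. Whether interferon lies behind the rise of *Socs1* was not tested. *Usp18*, *Ifit1*, *Ifit3* and *Oas1a*, with DMSO means below 1 FPKM, passed the filter only with their DADA libraries. Their calls as higher thus add little to the count, and their values raise the median. The gene called lower was *Irf1*, which encodes a transcription factor of the interferon response and went from between 31.6 and 33.8 FPKM to between 28.7 and 29.6 FPKM (log2 fold change -0.18, adjusted p = 2.96e-04, limma). *Il2ra* and *Il2rb*, *Osm* and *Lif*, *Stat2* and *Usp18* are among the genes that stand in more than a single list, so the lists are not independent.

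**Figure D5:**
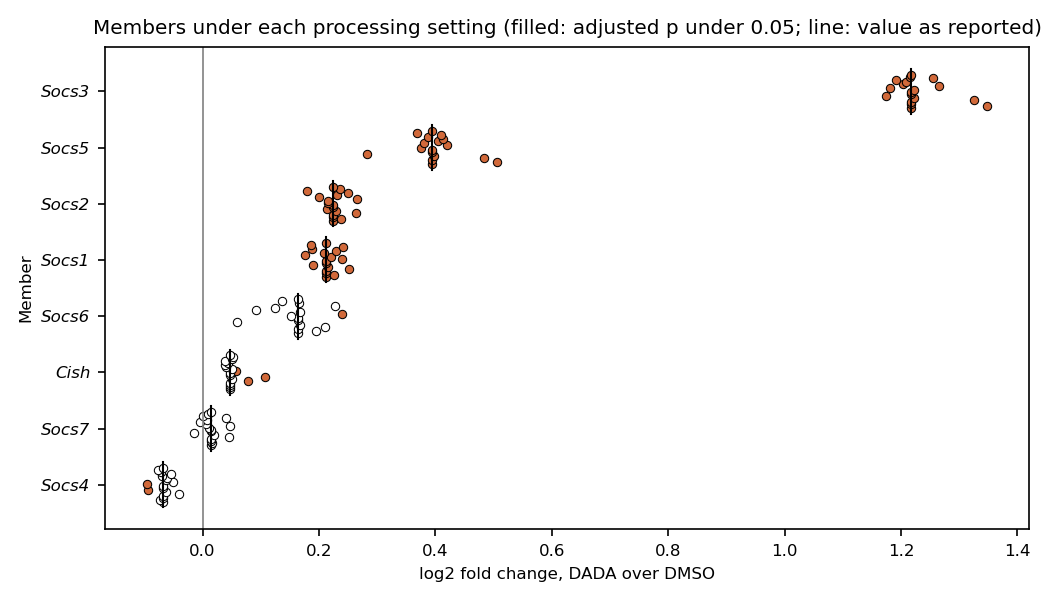
Log2 fold change of each member, DADA over DMSO (horizontal axis), under the setting reported (line) and each alternative (points), filled where the adjusted p-value was under 0.05. *Socs3* stays between 1.17 and 1.35, *Socs1*, *Socs2* and *Socs5* stay above 0 and filled, and *Socs7* crosses 0.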

How the data were processed

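Bulk RNA-seq of 4 DMSO-treated and 4 DADA-treated cultures was analysed, with libraries assigned by their titles. The deposited values are FPKM, which the authors made from paired-end reads, with a value for each gene in each library. The submitters' processing notes name HISAT2 2.0.5, StringTie 1.3.3 and the builds GRCm39 and GRCh38, with no role given. The labels and the methods name different library kits, and the strand setting is not given in the sources used here.

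Values were analysed as log2(FPKM + 1) for genes at 1 FPKM or more in at least 4 libraries, with limma 3.58.1 in R 4.3.3 (1 term for DADA, eBayes with trend, Benjamini-Hochberg over 10666 genes, call at adjusted p under 0.05). The fit was tested on simulated data (10666 genes, 200 of them changed). It recovered 65% of 60 genes changed by 0.25, 97% of 67 changed by 0.5 and 98.6% of 73 changed by 1 (log2). Of its 189 calls, 13 were false. In the data 66.2% of genes were called, a far larger share, so these rates do not carry over. Single values had a two-sided exact permutation test. The depth was estimated from low values of 4431 single-transcript genes in GENCODE M21. Between 36.8% and 41.4% of these values lay within 0.1 of a whole fragment, where chance gives 20% at a depth fixed in advance. The depth was picked as a best fit over a range of depths, so chance gives more than that here. For these reasons no count test was run.

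The members and lists were chosen with earlier results of these data known. Named genes are all members, the 2 largest changes in each direction of each list among calls that reach a mean of 5 FPKM in either group, a set of core pathway genes, and the 2 nearest profiles of each member. *Il2*, *Osm*, *Lif*, *Il6ra*, *Stat4*, *Stat6*, *Pim1*, *Pim2*, *Ptpn1*, *Ptpn2*, *Ptpn6*, *Ifit1*, *Ifit3*, *Oas1a* and the markers named were chosen after their values were seen. Alternatives were a pseudocount of 0.1, no filter, a mean of at least 5 FPKM, 3 scalings, no trend, a replicate block and each library left out. Leaving out the 163 assembled transcripts tested was added after the data were seen. Some genes of the lists are counted but not reported here by name.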

Additional observations from a re-analysis of the deposited data

Results flagged for a closer look

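In none of the 18 groups of 4 values formed by the 8 members and the family total did 1 library lie far from the other 3 by Dixon's test, which divides the distance of an extreme value from its neighbour by the whole range. Among all 98 groups tested, which include 40 named genes of the cytokine pathway, 6 passed its 95% critical value, and chance gives about 4.9. They were *Asb8* (ratio 0.88, 9.54 FPKM in DADA 3 against 10.0 to 10.1 FPKM in the other DADA libraries), *Csf2* (0.852, 80.0 FPKM in DMSO 4 against 83.9 to 84.5 FPKM), *Il10* (0.852, 6.59 FPKM in DADA 1 against 7.95 to 8.19 FPKM), *Lta* (0.874, 79.2 FPKM in DADA 1 against 84.1 to 84.8 FPKM), *Tyk2* (0.887, 16.6 FPKM in DMSO 3 against 15.9 to 16.0 FPKM) and *Usp18* (0.861, 31.8 FPKM in DADA 2 against 29.9 to 30.2 FPKM). Each of these gaps was smaller than the distance between the groups, *Asb8* included, whose lowest DMSO library was at 10.6 FPKM.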

How the results depend on the processing

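*Socs1*, *Socs2*, *Socs3* and *Socs5* kept their direction and call under every alternative that tested them, *Socs5* being left out at a mean of at least 5 FPKM. With no filter, a mean of at least 5 FPKM, no trend, a replicate block or no assembled transcripts, fold changes cannot move. Only the calls could change there. The number of members called ranged from 3 to 6, and from 4 to 6 with each library left out. *Cish* was called higher after rescaling to a common total (0.0788) and quantile normalization (0.108), *Socs4* lower under quantile normalization (-0.0937), and *Socs7* changed sign there (-0.0146). With each library left out in turn, *Cish* ranged from 0.0383 to 0.0575, *Socs4* from -0.0954 to -0.0512, *Socs6* from 0.0927 to 0.240 and *Socs7* from -0.0036 to 0.0468, and the ratio of *Socs7* to *Cish* ranged from -0.0499 to 0.0050, reaching 0.00070 without DMSO 2 and 0.0050 without DADA 2. Common-total rescaling moved the log2 ratio of the family total from 0.16 to 0.19. At a mean of at least 5 FPKM, 4 in place of 7 other SOCS box genes were called, where fewer were tested. In all, 438 of 450 recomputed values kept their direction and their side of the threshold, or moved by less than the replicate spread or by at most 1.5 times. Shares of the family total cannot change when a whole library is rescaled, so those values were the same by construction and add no support. Within the replicate spread, the change of the *Socs6* share (0.08 percentage points) turned to -0.07 without DMSO 4 and to -0.02 without DADA 1. For the changes without a stated reason the cause was not tested. The titles link same-numbered libraries only by the number. Correlations of same-numbered deviations over the genes tested lay between -0.12 and 0.0953, which cannot show whether such libraries share an origin. A replicate block gave 6995 genes called in place of 7064 and 4 members called in both. In a simulation with 200 of 10666 genes changed, the fit found 65% of changes of 0.25, so smaller changes of a member can be missed. That share does not carry over to these data, where far more genes were called and the adjusted threshold is less strict. Depth was not part of the simulation.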
